A study of Mus musculus with 9 samples.

Results

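Tiamulin, a pleuromutilin antibiotic of veterinary medicine, was given to Hepa1-6 cells, an established line grown from a mouse hepatoma, and the messenger RNA of the treated cells was compared with that of control cells. The comparison rests on 6 of the 9 RNA-Seq libraries of the study. They are 3 libraries of cells kept for 2 days in medium with tiamulin at 37 µg/mL and 3 control libraries. The sample labels describe the control as cells without any treatment, whereas the methods of the study name a vehicle control, so whether the control medium carried a vehicle is not settled here. The other 3 libraries, from cells given the related antibiotic lefamulin at the same dose and for the same time, shared the fit and are used where they show how the response to tiamulin differed. All cells, controls included, grew in DMEM with fetal bovine serum and penicillin-streptomycin. The 3 libraries of a group came from a single cell line, and nothing in the labels says that they were separate cultures, so the p values measure the spread between these libraries, which may be technical.

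Every gene with enough counts was taken, 14510 of the 56748 genes in the deposited table, and the account runs by gene group. Pleuromutilins bind the catalytic centre of the bacterial ribosome and stop the joining of amino acids there. Animal mitochondria keep a ribosome of bacterial descent, which makes only subunits of the respiratory chain and ATP synthase. Cells answer disturbed mitochondria, missing amino acids or misfolded proteins with the integrated stress response, in which the transcription factor ATF4 raises genes for amino acid synthesis and transport. They answer low sterol in the endoplasmic reticulum through SREBP2, which raises the enzymes of cholesterol synthesis.

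The labelled cell type was checked against 12 genes of hepatocytes and hepatoma. Their summed level was 4122.6 to 4405.4 CPM (counts scaled to an equal library size) over the control libraries, and 3 of the 12, Ahsg, Apoa1 and Ttr, had at most 10 counts in each of the 6 libraries. Most of the sum came from Krt18, Krt8, Afp, Trf and Alb, so the line carried epithelial and fetal liver markers with next to no transcript of those 3 plasma proteins. Among genes that mark other cells, 3 of 12 endothelial genes (Cldn5, Emcn and Erg) and 11 of 25 blood cell genes had no count at all. Each of 12 fibroblast and 10 cholangiocyte or progenitor genes had a count in some library, with 8 and 3 of them at no more than 10 counts in every library. The cholangiocyte and progenitor sum was 713 to 743 CPM in controls and 723 to 798 CPM with tiamulin.

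Total counts lay between 15568887 and 18008105 per library, and mitochondrial transcripts took 2.56% to 2.93% of the counts in controls and 2.76%, 2% and 2.81% in tiamulin 1, 2 and 3. Tiamulin 2 stood apart from the other libraries. The deviations of its genes from their group mean rose with the GC content of the transcript (Spearman's rho across 9156 genes 0.72, genes not being independent), and their standard deviation was 0.182 on the log2 scale against 0.0774 to 0.121 in the other 8 libraries. A GC trend was not confined to it. The same rho was 0.538 and -0.523 in control 1 and 2, and -0.577 and -0.613 in tiamulin 1 and 3. In the remaining libraries it lay between -0.167 and 0.202. When genes were put in 10 equal groups by GC, in the lowest group, from 31% to 41.2%, the median log2(fold change) of tiamulin 2 over the mean control was -0.24, and in the highest, from 57.4% to 71.3%, it was 0.25. Tiamulin 1 and tiamulin 3 ran the other way over a smaller range, from 0.05 to -0.07 and from 0.06 to -0.10. With the 3 libraries fitted together the medians of these groups were -0.04 and 0.02, and without tiamulin 2 they were 0.05 and -0.09. Over the tested genes the rho of log2(fold change) with GC was 0.0902 with all libraries and -0.113 without tiamulin 2. The fit without tiamulin 2 was thus not free of a GC trend. Values without tiamulin 2 are therefore given beside the results against control, where they move a count of list members by more than 1.5 times or end the call of a named gene. List counts of the comparison with lefamulin are given with all libraries only.

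**Figure D1:**
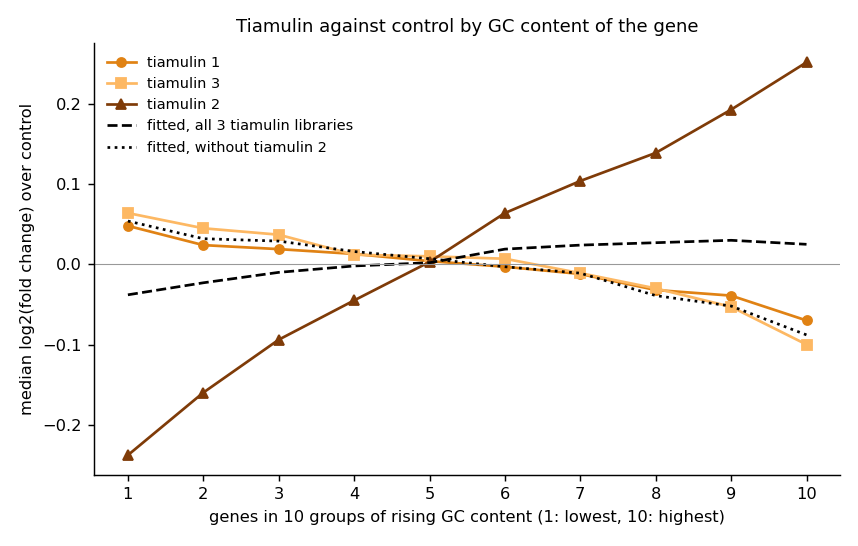
Median log2(fold change) over the control libraries in 10 groups of genes ordered by the GC content of their transcripts (percent), for each tiamulin library alone, for the fit with all 3 and for the fit without tiamulin 2. The line of tiamulin 2 climbs from -0.24 to 0.25, while those of the other libraries and of both fits stay between -0.10 and 0.07.

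Tiamulin moved many genes by a little and few by much. A gene is called raised or lowered here when its adjusted p was below 0.05 in edgeR's quasi-likelihood test (Benjamini-Hochberg over all 14510 genes), whatever its size, and a DEG when the change was also at least 2-fold, which is a log2(fold change) beyond 1 in either direction. By the first rule 1318 genes (9.08%) were raised and 1065 (7.34%) lowered, with a median fold of 1.35 and 0.766. Of these, 926 (70.3%) of the raised and 776 (72.9%) of the lowered genes changed by less than 1.5-fold. Counts of raised and lowered list members are to be read against these 2 shares, and counts without tiamulin 2 against the shares of that fit. By the second rule 153 genes (1.05%) were upregulated and 106 (0.731%) downregulated. The median log2(fold change) of all tested genes was 0.00.

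Fewer genes were called with tiamulin 2 in the fit than without it. Without tiamulin 2, 1748 (11.7%) of 14886 tested genes were raised and 1685 (11.3%) lowered, and 2207 (92.6%) of the 2383 genes called with it were called again. The DEGs then numbered 165 raised and 115 lowered, of which 206 were also DEGs with all 3 libraries. All 259 DEGs of the 3-library fit had the same direction without tiamulin 2, 53 no longer passed both thresholds and 64 others came in. The most abundant genes among the 53 were Atf3, Cd68, Hgsnat, Mvd and Sprr1b, whose log2(fold changes) moved from between 1.01 and 1.13 to between 0.90 and 1.00. The most abundant among the 64 were Aig1, Fam222a, Fzd8, Kif26b and Stbd1, and Fam222a moved from -0.78 to -1.06. Of the 53, 20 still had an adjusted p below 0.05 in edgeR, Atf3, Cd68, Hgsnat, Mvd and Sprr1b among them, and the others did not.

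The DEGs were mostly genes with few counts. Their median, not corrected for gene length, was 2.78 CPM for raised and 2.02 CPM for lowered DEGs, beside 22.3 CPM for all tested genes, and 38 of the raised and 25 of the lowered lay under 1 CPM. Protein-coding genes made up 131 (85.6%) of the raised and 70 (66%) of the lowered DEGs, and 11804 (81.4%) of the tested genes. Long noncoding RNAs made up 8 (5.23%) of the raised and 27 (25.5%) of the lowered DEGs, beside 1372 (9.46%) of the tested genes. The share among lowered DEGs was 27% without tiamulin 2 and 21% among genes with at least 10 counts in every library. Whether counting used the strand of the reads is not given in the sources used here, so reads of an antisense RNA and of the gene across from it may not be separated.

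**Figure D2:**
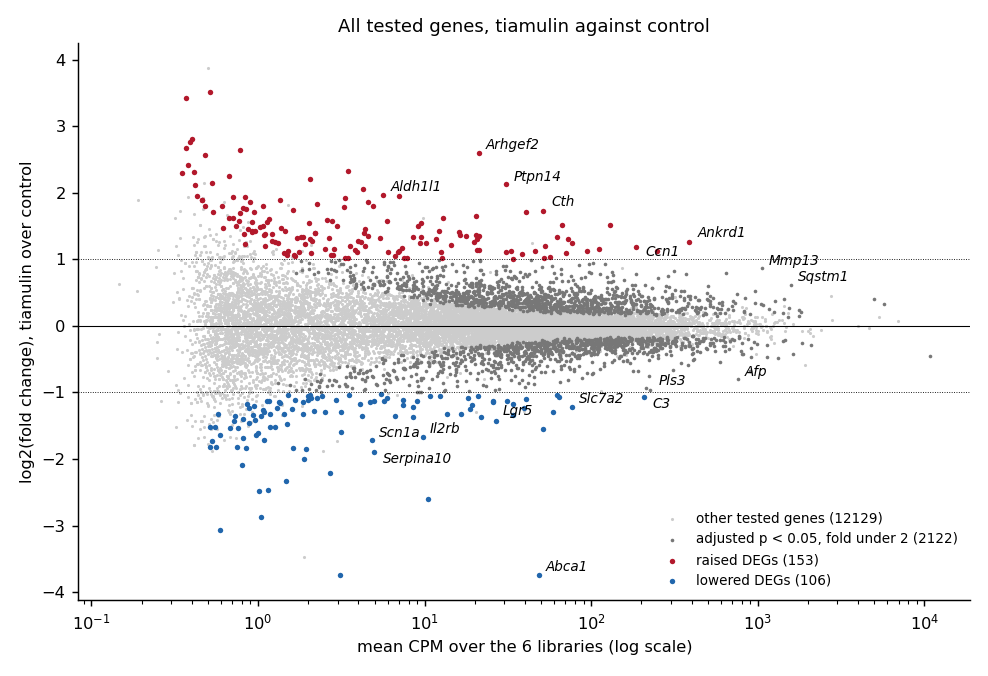
Log2(fold change) of tiamulin over control (y) against the mean level over the 6 libraries in CPM (x, log scale), with 1 point per tested gene and dotted lines at a 2-fold change. The 153 raised and 106 lowered DEGs lie mainly at low CPM on the left, and the genes called with less than a 2-fold change fill the band between the lines at higher CPM.

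Most genes of the integrated stress response were raised. Of the 37 tested genes on the list of ATF4 targets and response genes, 32 were raised, against 9.08% of all genes, and the other 5 (Cbs, Cebpb, Mthfd1l, Ddit4 and Ero1a) did not pass the test, with log2(fold changes) from 0.05 to 0.25. The median of the list was 0.56, the called rises ran from 0.19 to 1.72, and 8 members were DEGs. Without tiamulin 2, 34 of 38 were raised with a median of 0.51.

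A word that ATF4 and C/EBP proteins are known to read together was searched for in their promoters. In the 250 bases before the RefSeq start (GRCm38.p6), the letters TGATGNAA, on either strand, were found in 8 (25%) of the 32 list members with a promoter sequence and in 241 (2.4%) of the 10029 tested genes with one. A match is a run of letters and was not tested as a binding site. The list holds known targets of ATF4, and all its members were searched, raised or not. A higher share among them therefore says nothing about the response to tiamulin. In the searches below, too, all list members were taken. The windows below are shown for 6 of these 8 genes, 5′ to 3′ on the strand of the gene, with the matched letters in capitals (TTGCATCA is the word read on the other strand).
Chac1, chr2:119351040-119351065, plus strand: tccctgccgTTGCATCActcctgcca
Atf3, chr1:191183427-191183452, minus strand: ttctcgcacTTGCATCAccaagtccg
Pycr1, chr11:120643835-120643860, minus strand: ccctgtgtaTGATGCAAtgcacaagg
Asns, chr6:7693216-7693241, minus strand: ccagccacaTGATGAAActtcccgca
Slc7a11, chr3:50443663-50443688, minus strand: tcatgtggcTGATGCAAacctggaga
Vldlr, chr19:27216811-27216836, plus strand: cagcaatagTTGCATCAgcgctccta
Asns, which makes asparagine, carries the word with a different base at its open position and rose by 0.59. Slc7a11 carries a second match 47 bases before its start. Vldlr, a lipoprotein receptor, rose by 0.57.

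Of the regulators, Atf4 itself was at 451, 439 and 427 CPM in the controls and at 563, 660 and 572 CPM with tiamulin, a log2(fold change) of 0.45 ± 0.06 (SE; edgeR adjusted p = 0.000196). Ddit3, which encodes CHOP, a partner of ATF4 linked to cell death, went from 33.2, 31.0 and 31.8 CPM to 71.8, 79.5 and 69.6 CPM (1.20 ± 0.07, edgeR adjusted p = 7.94e-08). Atf3, a stress-induced factor of the same family, went from 41.1, 36.0 and 34.3 CPM to 71.7, 80.2 and 76.5 CPM. In these genes each tiamulin library lay above each control. Trib3, a pseudokinase that holds ATF4 back, rose from 33.8 to 37.2 CPM in controls to 76.2 to 109 CPM with tiamulin, with the highest value in tiamulin 2. Ppp1r15a, which restores translation initiation, rose by 0.92 on the log2 scale.

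Cth and Chac1, which handle sulphur amino acids and glutathione, rose furthest among the list members. Cth makes cysteine from cystathionine. It stood at 23.4, 25.3 and 22.6 CPM in controls and at 79.3, 78.0 and 78.4 CPM with tiamulin, 3.31-fold (log2 1.72 ± 0.07, edgeR adjusted p = 2.74e-09). Chac1, which cleaves glutathione, rose from 19.6, 19.4 and 18.1 CPM to 58.2, 70.4 and 57.8 CPM (1.71 ± 0.09, edgeR adjusted p = 3.28e-08). The groups were far apart and the libraries within each close together. Slc7a11, the cystine importer, was raised from 457, 501 and 463 CPM to 864, 730 and 875 CPM, a log2(fold change) of 0.80. Gdf15, a secreted stress signal, rose by 0.78, and Nupr1, a stress-induced chromatin protein, by 0.71.

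The one-carbon pathway, which passes units from serine to folate inside and outside mitochondria, moved in both directions. Of 22 tested genes 10 were raised and 4 lowered, against 9.08% and 7.34% of all genes. Several raised members, among them Aldh1l2, Psph and Cth, are also on the stress response list, so the counts of these lists are not separate results. Aldh1l2, the mitochondrial enzyme that oxidises formyl-folate, rose from 33.9, 35.6 and 34.3 CPM to 95.5, 102 and 99.8 CPM (1.52 ± 0.07, edgeR adjusted p = 4.56e-09). Its cytosolic relative Aldh1l1 rose from 2.42, 2.10 and 2.35 CPM to 8.15, 9.50 and 9.36 CPM, 3.92-fold. Psph, the last step of serine synthesis, rose from 43.8, 46.4 and 45.7 CPM to 99.5, 93.8 and 96.3 CPM (1.09 ± 0.06). The 4 lowered genes act in the cytosol or nucleus. They were Tyms, which makes thymidylate (-0.66), Shmt1 (-0.41) and Mthfd1 (-0.36), which load and interconvert cytosolic folate, and Mat2a, which makes S-adenosylmethionine (-0.29).

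Most enzymes that charge transfer RNAs in the cytosol were raised. Of 20 tested, 15 were raised and 3 lay below 0, and without tiamulin 2 the counts were 15 raised and 1 lowered, with a median log2(fold change) of 0.31 over the list with all libraries. Sars, for serine, went from 408, 404 and 383 CPM to 557, 681 and 577 CPM (0.60, edgeR adjusted p = 3.64e-05), and Aars, Nars, Iars, Rars and Tars rose by 0.41 to 0.53. Farsa, Hars, Dars, Kars and Vars did not pass the test. The word TGATGNAA was found in 3 (23.1%) of the 13 with a promoter sequence. The windows of Tars and of Gars, which rose by 0.19, are shown on the strand of the gene.
Tars, chr15:11399659-11399682, minus strand: ggagtcccgTTGCATCAgctggtt
Gars, chr6:55037962-55037987, plus strand: gctgcgctaTTTCATCAtgcaccggg

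Of 25 amino acid transporters 10 were raised, above the 9.08% of all genes, and 2 lowered, near the 7.34%. Of the raised ones, Slc7a11, Slc3a2, Slc6a9, Slc7a5 and Slc7a1 are also on the stress response list and were counted there. Without tiamulin 2 the counts were 11 and 3 of 26, against 11.7% and 11.3%. Slc3a2, the shared heavy chain of several exchangers, rose by 0.74, Slc6a9, a glycine importer, by 0.99, and Slc7a5 and Slc7a1, importers of large neutral and of cationic amino acids, by 0.41 and 0.38. Slc7a2, another cationic importer, was downregulated from 109, 110 and 102 CPM to 51.8, 37.7 and 48.3 CPM (-1.22 ± 0.10, edgeR adjusted p = 1.83e-06). Slc1a2, a glutamate importer, fell from 9.82, 13.3 and 13.6 CPM to 3.53, 4.37 and 6.24 CPM, a log2(fold change) of -1.37. No tiamulin library of either gene reached the lowest control.

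**Figure D3:**
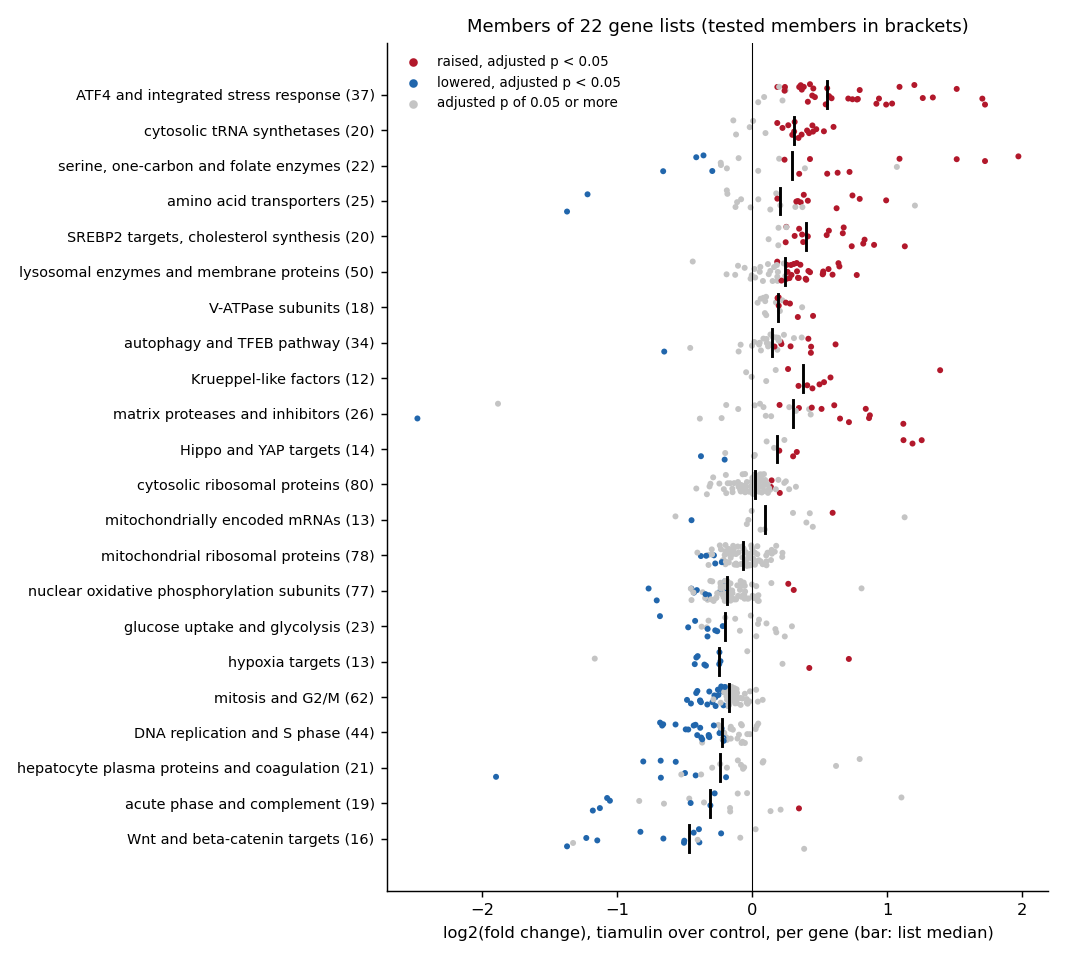
Log2(fold change) of tiamulin over control for the tested members of 22 gene lists, 1 dot per gene, red for raised, blue for lowered and grey for genes that did not pass, with a black bar at the median of each list. The stress response, cholesterol synthesis and lysosome lists lie mostly to the right of 0, with medians of 0.56, 0.40 and 0.24, and the Wnt, S phase and mitosis lists mostly to the left, with medians of -0.47, -0.22 and -0.17.

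Cholesterol synthesis was raised along most of its length. Of the 20 tested SREBP2 targets 16 were raised and the other 4 did not pass, with a median log2(fold change) of 0.40, and without tiamulin 2 the count was 18. Mvd, which makes isopentenyl diphosphate, rose from 22.3, 19.2 and 20.7 CPM to 40.1, 53.7 and 42.4 CPM (1.13 ± 0.11, edgeR adjusted p = 7.48e-06), or by 0.99 without tiamulin 2. Acat2 (0.82), Fdps (0.90), Lss (0.68), Tm7sf2 (0.83) and Dhcr7 (0.74), enzymes from the first condensation to the last reduction, were raised too. The letters TCACNCCAC of the sterol regulatory element, searched on both strands of the same windows, were found in 1 (6.67%) of the 15 list members with a promoter sequence and in 134 (1.34%) of all 10029. The transcript of the factor itself, Srebf2, had a log2(fold change) of 0.14 and did not pass (edgeR adjusted p = 0.373).

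Uptake and movement of sterol gave fewer calls. Of 13 genes tested for these roles 4 were raised and the other 9 did not pass. Insig1, the sterol-sensitive anchor of SREBP, rose by 0.47 on the log2 scale, and Npc2, which hands cholesterol to Npc1 in the lysosome, by 0.53. Npc1 was at 137, 130 and 130 CPM in controls and at 187, 202 and 184 CPM with tiamulin (0.53 ± 0.06, edgeR adjusted p = 2.21e-05).

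Of 21 genes of fatty acid synthesis 7 were raised and 3 lowered, against 9.08% and 7.34% of all genes. Acss2, which makes acetyl-CoA from acetate, rose from 8.31, 7.92 and 10.1 CPM to 21.4, 24.0 and 24.6 CPM (1.41 ± 0.12, edgeR adjusted p = 1.9e-06). Scd1, a desaturase, rose by 0.33, while its relative Scd2 fell by 0.29 on the log2 scale. Srebf1, the factor named for this pathway, was at 194, 153 and 178 CPM in controls and at 110, 160 and 113 CPM with tiamulin. Tiamulin 2 lay within the control range there, and the call (-0.46, edgeR adjusted p = 0.0249) did not survive in 4 of 9 refits with 1 library removed, while without tiamulin 2 the value was -0.66 (adjusted p = 2.7e-06).

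Some carriers of lipid out of the cell were lower. Of 9 tested targets of the sterol sensor LXR other than Abca1, 3 were lowered and 1 raised, against 7.34% and 9.08% of all genes. The raised one was the ABC transporter Abcb11 (1.935, edgeR adjusted p = 0.0141). Its call ended without tiamulin 2 (edgeR adjusted p = 0.0647). Abcg1, a sterol exporter and target of the sterol sensor LXR, fell from 3.93, 5.06 and 5.19 CPM to 1.28, 1.56 and 1.82 CPM (-1.60 ± 0.30, edgeR adjusted p = 0.00207). Apoe fell from 1995, 1696 and 1930 CPM to 1272, 1574 and 1344 CPM (-0.42, edgeR adjusted p = 0.00182), and Apob and Apoc4 were lowered at -0.39 and -0.90. These made 3 of the 8 tested genes of apolipoproteins and lipoprotein assembly. The 2 genes that encode LXR, Nr1h3 and Nr1h2, had values of -0.24 and 0.25 and did not pass. Acot2, a mitochondrial thioesterase on the list of fatty acid oxidation genes, rose 2.90-fold from 5.54, 4.48 and 4.58 CPM in controls (1.54, edgeR adjusted p = 5.57e-06). Of the 23 genes on that list 3 were raised and 2 lowered, shares near those of all genes. Without tiamulin 2 the counts were 3 and 5, against 11.7% and 11.3% of all genes in that fit.

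About as many lysosomal genes were raised as did not pass. Of 50 tested 26 were raised, against 9.08% of all genes, and the other 24 did not pass, 7 members lying below 0. The median log2(fold change) was 0.24. Without tiamulin 2, 29 were raised with a median of 0.21. Ctsl, a major cysteine protease of the lysosome, went from 1252, 1250 and 1232 CPM to 1632, 1642 and 1658 CPM (0.40 ± 0.04, edgeR adjusted p = 2.32e-05). Scpep1 (0.60), Hexa (0.52), Gm2a (0.64), Scarb2 (0.60) and Slc17a5 (0.78), which act in peptide, ganglioside, membrane and sialic acid handling, were raised as well. Hgsnat, an acetyltransferase of heparan sulphate breakdown, rose from 34.2, 34.7 and 33.9 CPM to 69.6, 73.5 and 64.6 CPM. Of the 18 subunits of the V-ATPase, the pump that acidifies lysosomes, 7 were raised, and without tiamulin 2 the count was 12. Atp6v1a, of its catalytic part, rose by 0.45.

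The lysosomal factors TFEB and TFE3 are known to read the E-box TCACGTGA. These letters, which are the same on both strands, were found in 5 (12.5%) of the 40 lysosomal genes with a promoter sequence, in 1 (7.69%) of 13 V-ATPase genes and in 179 (1.78%) of all 10029. Windows of 4 genes are shown on the strand of the gene with the E-box in capitals.
Ctsd, chr7:142387910-142387935, minus strand: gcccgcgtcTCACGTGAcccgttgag
Gla, chrX:134601217-134601242, minus strand: agcgattgaTCACGTGAgcatctacg
Mcoln1, chr8:3500464-3500489, plus strand: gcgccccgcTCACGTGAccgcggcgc
Atp6v1a, chr16:44139375-44139400, minus strand: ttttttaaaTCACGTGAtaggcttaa
The protease Ctsd rose by 0.40, the galactosidase Gla by 0.57 and the calcium channel Mcoln1 by 0.29 on the log2 scale. The transcripts of the factors did not pass the test, with log2(fold changes) of -0.46 for Tfeb (edgeR adjusted p = 0.0851), 0.15 for Tfe3 and 0.02 for Mitf. Without tiamulin 2, Tfeb was lowered (-0.68, adjusted p = 0.000742).

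Of 34 autophagy genes 9 were raised and 1 lowered (9.08% and 7.34% of all genes), or 14 and 2 without tiamulin 2 (11.7% and 11.3%). Sqstm1, the cargo receptor p62, went from 1314, 1228 and 1195 CPM to 1787, 2121 and 1828 CPM (0.62, edgeR adjusted p = 1.76e-05), and Nbr1 and Calcoco1 each rose by 0.44. The lowered member was Atg3, which lipidates LC3, at -0.65 (edgeR adjusted p = 0.000283).

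**Figure D4:**
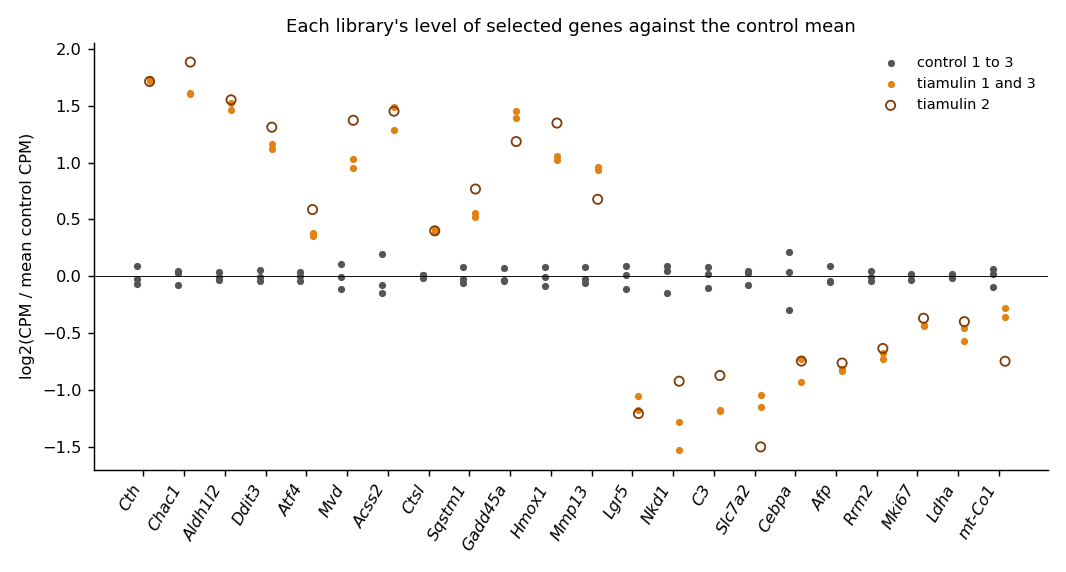
Log2 of each library's CPM over the mean control CPM for 22 genes of the groups described, with controls in grey, tiamulin 1 and 3 in orange and tiamulin 2 as open circles. The rises of Cth, Chac1 and Aldh1l2 and the falls of Slc7a2, Nkd1 and Lgr5 stand clear of the controls in all 3 tiamulin libraries, while tiamulin 2 sits apart from the other tiamulin libraries in mt-Co1.

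A part of the genes of DNA replication and of mitosis was lowered. Of 44 S phase genes 21 were lowered and of 62 genes of G2 and mitosis 21 were lowered, against 7.34% of all tested genes, and the other members did not pass. The medians were -0.22 and -0.17. Without tiamulin 2 the counts were 29 and 34, against 11.3%. Because these are bulk libraries, fewer cells in a phase and less RNA per cell cannot be told apart.

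Rrm2, the regulated subunit of ribonucleotide reductase, fell from 101, 94.5 and 96.8 CPM to 60.9, 62.6 and 58.6 CPM (-0.68 ± 0.07, edgeR adjusted p = 9.34e-06). Ccne2, a cyclin of the entry into S phase, fell from 43.5, 48.5 and 48.5 CPM to 30.5, 26.9 and 31.1 CPM (-0.67, edgeR adjusted p = 0.000225). Mki67, the proliferation marker Ki-67, was at 458, 473 and 477 CPM in controls and at 346, 363 and 347 CPM with tiamulin (-0.41, edgeR adjusted p = 0.000284). The tiamulin libraries of the 3 genes lay close together and below all controls. Top2a, which untangles DNA, Nuf2, of the kinetochore, and Birc5, of the chromosomal passenger complex, were lowered at -0.38, -0.48 and -0.45.

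Among genes known to answer p53, 10 of 31 were raised and 1 lowered (9.08% and 7.34% of all genes), or 14 and 2 without tiamulin 2 (11.7% and 11.3%). Gadd45a, a stress gene that p53 and ATF4 can both raise, went from 11.5, 12.5 and 11.6 CPM to 31.3, 27.1 and 32.7 CPM (1.35 ± 0.10, edgeR adjusted p = 1.24e-06). Plk2, a stress-induced kinase, rose by 0.78, Mdm2, the ligase for p53, by 0.38 and Perp, a desmosome protein, by 0.33. Cdkn1a, the cell cycle inhibitor p21, was at 0.14 and did not pass (edgeR adjusted p = 0.166), and neither did Trp53 itself, at -0.10. The lowered gene was the death receptor Fas, at -0.61.

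Most targets of Wnt and beta-catenin were lowered. Of 16 tested 11 were lowered, against 7.34% of all genes, and the other 5 did not pass, with a median log2(fold change) of -0.47. The count was again 11 without tiamulin 2, against 11.3%. Nkd1, a feedback inhibitor of the pathway, fell from 57.4, 50.1 and 59.0 CPM to 22.8, 29.2 and 19.2 CPM (-1.23 ± 0.12, edgeR adjusted p = 1.26e-05). Lgr5, a receptor for R-spondins, fell from 35.9, 32.9 and 37.9 CPM to 17.1, 15.4 and 15.7 CPM (-1.15 ± 0.09, edgeR adjusted p = 1.24e-06). Axin2, another feedback target, fell from 394, 357 and 383 CPM to 216, 278 and 225 CPM (-0.66, edgeR adjusted p = 8.23e-05). Lect2, a secreted protein of hepatocytes and a target in liver, was lowered at -0.83 and the nuclear factor Tcf7l2 at -0.50. Ctnnb1, which encodes beta-catenin, was at 0.03 and did not pass (edgeR adjusted p = 0.764).

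Of 14 tested genes on the list of YAP and TEAD, factors that answer cell shape and tension, 6 were raised and 2 lowered, against 9.08% and 7.34% of all genes. The list holds targets and the factors themselves. Ankrd1 was at 223, 239 and 222 CPM in controls and at 569, 507 and 557 CPM with tiamulin (1.26 ± 0.06, edgeR adjusted p = 8.98e-09). Ccn1, a matrix protein, went from 118, 112 and 110 CPM to 244, 283 and 248 CPM (1.19, edgeR adjusted p = 7e-08), and its relative Ccn2 from 167, 142 and 162 CPM to 330, 344 and 351 CPM (1.12, edgeR adjusted p = 6.78e-08). The 2 lowered genes of the list were factors of the pathway, Tead1 at -0.38 and Yap1 at -0.20.

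Among the DEGs with the largest rises, Arhgef2, a microtubule-bound activator of RhoA, rose from 7.62, 4.54 and 5.81 CPM to 32.5, 42.9 and 33.4 CPM, 6.05-fold (2.60 ± 0.16, edgeR adjusted p = 1.02e-07). Ptpn14, a phosphatase that binds YAP, rose from 11.6, 11.8 and 11.1 CPM to 49.7, 49.5 and 51.3 CPM, 4.37-fold (2.13 ± 0.09, edgeR adjusted p = 2.74e-09). Pls3, an actin bundling protein and not a DEG by the 2-fold rule, fell from 286, 290 and 316 CPM to 149, 146 and 161 CPM (-0.97).

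Early response genes gave 9 raised and 1 lowered of 29, against 9.08% and 7.34% of all genes. Dusp1, a phosphatase that switches off MAP kinases, rose from 46.4, 46.3 and 44.6 CPM to 101, 116 and 108 CPM (1.24, edgeR adjusted p = 2.24e-07). Jun rose by 0.71 and Egr1 by 0.31, while Fos was at -0.25 and did not pass (edgeR adjusted p = 0.362). Of 12 Krüppel-like factors 8 were raised, against the same 9.08%, with Klf6, Klf7 and Klf9 at 0.45, 0.58 and 0.50.

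Of 26 genes of matrix proteases, their inhibitors and receptors 11 were raised and 1 lowered (9.08% and 7.34% of all genes), and without tiamulin 2 10 were raised and 3 of 27 lowered, the latter at the 11.3% of all genes. Mmp13, a collagenase, went from 735, 790 and 718 CPM to 1459, 1196 and 1433 CPM (0.87, edgeR adjusted p = 1.56e-06) and Mmp10, a stromelysin, from 28.0, 31.5 and 27.5 CPM to 64.9, 62.0 and 62.2 CPM (1.12, edgeR adjusted p = 3.47e-07). Adamts1, which cuts proteoglycans, and Plaur, the urokinase receptor, rose by 0.84 and 0.65.

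Of 40 matrix components 6 were raised and 6 lowered (9.08% and 7.34% of all genes), and of 42 without tiamulin 2 6 were raised and 13 lowered (11.7% and 11.3%). Col27a1, a fibrillar collagen, was at -1.12 and Dcn, the proteoglycan decorin, at -0.49. Dcn made up nearly all of the summed level of the 12 fibroblast markers, which was 1509 to 1595 CPM in controls and 1064 to 1158 CPM with tiamulin, and 8 of those 12 had at most 10 counts in every library.

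A part of the secreted liver proteins was lowered. Of 19 acute phase and complement genes 7 were lowered and 1 raised, against 7.34% and 9.08% of all genes, and without tiamulin 2 the lowered ones numbered 9 (11.3% of all genes) and the raised call was lost. The median was -0.31, and of 21 other plasma proteins 8 were lowered, with a median of -0.24. C3, the central complement component, fell from 283, 259 and 296 CPM to 123, 152 and 123 CPM (-1.07 ± 0.09, edgeR adjusted p = 1.95e-06). Cfi and Fgl1, a complement protease and a fibrinogen-like hepatokine, were at -1.05 and -1.13, and Fgl1 was at -0.94 without tiamulin 2. Hp, haptoglobin, was called at about 1 CPM (-1.18, edgeR adjusted p = 0.0348), a call that did not survive in 6 of 9 refits with 1 library removed.

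Afp, the fetal albumin that hepatomas express again, fell from 933, 930 and 1023 CPM to 541, 566 and 545 CPM (-0.81 ± 0.06, edgeR adjusted p = 5.45e-07). Alb fell from 470, 459 and 532 CPM to 344, 350 and 341 CPM, a log2(fold change) of -0.50. Serpina10, an inhibitor of coagulation, was at 6.99, 8.26 and 8.10 CPM in controls and at 1.40, 2.75 and 2.12 CPM with tiamulin (-1.90, edgeR adjusted p = 7.82e-05). Both groups of the 3 genes were free of overlap. Hpx, which binds haem, and the growth factor carrier Igfbp4 both fell by 0.68 on the log2 scale.

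Of 20 liver transcription factors 5 were lowered and 1 raised, against 7.34% and 9.08% of all genes, and without tiamulin 2 the lowered ones numbered 10, against 11.3%. Cebpa, a factor of the hepatocyte programme, fell from 41.2, 28.8 and 36.4 CPM to 21.4, 21.1 and 18.6 CPM (-0.80, edgeR adjusted p = 0.000435). Nr5a2 and Onecut1 were lowered at -0.77 and -0.68, and Onecut2, the raised member, rose by 0.57. Hnf4a and Foxa2 had values of -0.05 and -0.08 and did not pass, but without tiamulin 2 both were lowered, at -0.12 (edgeR adjusted p = 0.0466) and -0.23 (0.0145).

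Of 23 glycolytic genes 8 were lowered and the other 15 did not pass, and of 13 hypoxia targets 8 were lowered and 2 raised, against 7.34% and 9.08% of all genes. Ldha, which makes lactate, fell from 1062, 1048 and 1075 CPM to 715, 805 and 775 CPM (-0.47, edgeR adjusted p = 2.79e-05). Pfkl, the liver phosphofructokinase, and Tpi1 were lowered at -0.68 and -0.42, and Slc2a1, a glucose importer, at -0.27, a call that ended in 5 of 9 refits with a library removed. The 2 raised hypoxia targets were Ndrg1, a stress gene that also answers differentiation (0.72, edgeR adjusted p = 9.01e-07), and Vegfa, the endothelial growth factor (0.42).

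Nuclear genes of the respiratory chain were more often below than above the controls. Of 77 tested 66 had a log2(fold change) below 0, and 11 were lowered and 2 raised, against 7.34% and 9.08% of all genes, with a median log2(fold change) of -0.18, which was -0.07 without tiamulin 2, with 12 lowered. With an offset for GC content in each library the median was -0.18 and 19 were lowered, against 1681 of all 14510 genes. Ndufa5, of complex I, and Atp5g1, of the ATP synthase, were at -0.71 and -0.45. Of 78 genes for proteins of the mitochondrial ribosome 5 were lowered, a share under the 7.34% of all genes, and 4 were raised and 10 lowered without tiamulin 2, the latter near the 11.3% of all genes. Among 16 mitochondrial chaperones and proteases 1 was raised, Hspa9 at 0.18, a call that ended in 6 of 9 refits with a library removed. Hspd1 at -0.29 and Phb at -0.27 were lowered, and without tiamulin 2 the lowered genes numbered 5. Prdx3, the peroxidase of the mitochondrial matrix, fell by 0.70 on the log2 scale.

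The mitochondrial genome's own mRNAs did not move together, and their counts depended on tiamulin 2. Of the 13, mt-Co1 was lowered and mt-Nd3 raised with all 3 libraries, the latter (0.60, edgeR adjusted p = 0.0475) a call that ended in 8 of 9 refits with a library removed, whereas 5 were raised and 1 lowered without tiamulin 2, and the median went from 0.09 to 0.34. mt-Co1, of complex IV, was at 11676, 13031 and 12624 CPM in controls and at 9681, 7403 and 10274 CPM with tiamulin (-0.45, edgeR adjusted p = 0.0048, or -0.32 without tiamulin 2). mt-Nd2, of complex I, was at 2122, 2554 and 2299 CPM in controls and at 3577, 2377 and 3572 CPM with tiamulin. Its value was 0.45 (edgeR adjusted p = 0.0563) with tiamulin 2, which lay within the control range, and 0.62 (adjusted p = 0.000421) without it. Some of these genes overlap each other or have nuclear copies, and their values are uncertain for that reason.

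Stress pathways other than the integrated response gave mixed counts. Of 29 genes of the NRF2 response 6 were raised and 4 lowered (9.08% and 7.34% of all genes), or 9 and 4 without tiamulin 2 (11.7% and 11.3%). Hmox1, which breaks down haem, rose from 72.6, 68.5 and 64.8 CPM to 143, 175 and 140 CPM (1.15, edgeR adjusted p = 7e-07), and Fth1 and Ftl1, the ferritin chains that store iron, rose by 0.38 and 0.46. Nqo1, a classical target, did not pass at 0.74 (edgeR adjusted p = 0.124), nor did Nfe2l2, the gene of NRF2, at -0.03. Of 27 genes of the endoplasmic reticulum's unfolded protein response 7 were raised and 4 lowered, or 8 and 7 without tiamulin 2, to be set against the same shares. Among the raised were Hspa5, the chaperone BiP, at 0.33, and the sensors Ern1 and Atf6 at 0.43 and 0.28. Of 17 cytosolic heat shock genes 1 was raised and 3 lowered, against 9.08% and 7.34% of all genes, and without tiamulin 2 the counts were 1 and 7, against 11.7% and 11.3%.

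Immune genes showed no single direction. Of 65 interferon-induced genes 7 were raised, near the 9.08% of all genes, and 9 lowered, above the 7.34%. Without tiamulin 2 the counts were 10 and 7, against 11.7% and 11.3%. Of 20 targets of NF-kB 2 were raised, the share of all genes, and 5 lowered, or 3 and 8 without tiamulin 2. Of 32 chemokines and cytokines 5 were raised and 5 lowered. Mx1, an antiviral GTPase, rose from 2.83, 3.43 and 2.68 CPM to 9.01, 9.18 and 8.48 CPM (1.57, edgeR adjusted p = 6.84e-06), while Ifitm3, a membrane restriction factor, fell by 0.71 on the log2 scale. Tnfaip3, which ends NF-kB signalling, rose from 65.0, 72.2 and 63.6 CPM to 132, 132 and 118 CPM (0.93, edgeR adjusted p = 1.05e-06), while Nfkbia and Traf1 were lowered at -0.41 and -0.79. Cxcl2 rose by 1.02, and Cxcl5, Cxcl10 and Cx3cl1 were at -0.72, -0.95 and -1.05. The summed level of the 25 blood cell markers was 37.4 to 39.5 CPM in controls and 46.6 to 62.0 CPM with tiamulin. Most of it came from Cd14 and Cd68, and 17 of the 25 had at most 10 counts in every library. The part of these markers in the values of the immune genes was not tested.

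Lefamulin shares the ring system of tiamulin and differs from it in the side chain. Both were given at 37 µg/mL for 2 days. This single pair of compounds was compared directly in the same fit, with p values adjusted over all 14510 genes. The doses were equal by mass and not matched by effect. In the study's growth assays of this cell line, 37 µg/mL lay above the calculated midpoint of inhibition for lefamulin and below that for tiamulin. The part of effective dose in the differences between the drugs was not tested. Each drug's values against control rest on the same 3 control libraries, and the direct comparison takes from the controls only the estimate of spread that the 9 libraries share. Tiamulin libraries were higher for 413 genes (2.85%) and lower for 298 (2.05%), and 33 genes differed by at least 2-fold, 12 higher and 21 lower. Lefamulin libraries are given here only as the measure against which the response to tiamulin differed.

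Some YAP and TEAD targets differed between the drugs. Ankrd1 was at 569, 507 and 557 CPM with tiamulin and at 315, 330 and 328 CPM with lefamulin, a difference of 0.75 on the log2 scale (95% interval 0.62 to 0.87, edgeR adjusted p = 8.52e-06). Ccn1 was at 244, 283 and 248 CPM against 130, 136 and 145 CPM (0.92, interval 0.77 to 1.06, edgeR adjusted p = 6.74e-06), and Ccn2 at 330, 344 and 351 CPM against 223, 230 and 222 CPM (0.61, interval 0.47 to 0.74). Of the 14 genes on that list 6 were higher with tiamulin, against 2.85% of all genes. Tnfaip3 was at 132, 132 and 118 CPM against 69.7, 72.7 and 66.7 CPM, a difference of 0.87 (interval 0.72 to 1.02, edgeR adjusted p = 1.41e-05).

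Several S phase transcripts and Afp were lower with tiamulin than with lefamulin. Rrm2 was at 60.9, 62.6 and 58.6 CPM with tiamulin and at 89.3, 97.4 and 103 CPM with lefamulin, a difference of -0.67 (interval -0.81 to -0.53, edgeR adjusted p = 0.000117). Ccne2 differed by -0.89 (interval -1.09 to -0.69, edgeR adjusted p = 0.000146). Of the 44 S phase genes and of the 62 mitosis genes 7 each were lower with tiamulin, against 2.05% of all genes. Afp was at 541, 566 and 545 CPM against 933, 843 and 875 CPM, a difference of -0.68 (interval -0.80 to -0.56, edgeR adjusted p = 1.41e-05).

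Some stress and lysosome genes were higher with tiamulin. Of the 37 stress response genes 9 were higher, against 2.85% of all genes, among them Cth by 0.39 (interval 0.25 to 0.53) and Pycr1, which makes proline, by 0.67 (interval 0.45 to 0.89, edgeR adjusted p = 0.00276). Hgsnat was higher by 0.61 (interval 0.44 to 0.78), Npc1 by 0.42 (interval 0.30 to 0.54) and Calcoco1 by 0.70 (interval 0.57 to 0.84). Other genes were lower with tiamulin. Rhob, a small GTPase, rose under tiamulin to 101, 112 and 98.0 CPM from 42.8, 42.0 and 41.7 CPM, but stood at 219, 228 and 225 CPM with lefamulin (difference -1.11, interval -1.24 to -0.98, edgeR adjusted p = 5.07e-07). Arf2, a GTPase of vesicle budding, was at 33.1, 36.1 and 32.8 CPM in controls and at 33.6, 33.9 and 30.8 CPM with tiamulin, against 71.6, 77.1 and 76.9 CPM with lefamulin (difference -1.20, interval -1.36 to -1.04, edgeR adjusted p = 1.14e-06).

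Differences were not detected in several genes that tiamulin moved. Lss differed between the drugs by -0.14 (interval -0.29 to 0.01, edgeR adjusted p = 0.259), Scarb2 by -0.02 (interval -0.22 to 0.17, edgeR adjusted p = 0.907) and Slc7a1 by -0.01 (interval -0.12 to 0.10, edgeR adjusted p = 0.913). Tcf7l2 of the Wnt list differed by -0.08 (interval -0.30 to 0.15, edgeR adjusted p = 0.712). The intervals bound a difference in these 4 genes to less than 0.31 in either direction and do not show that the compounds act alike.

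**Figure D5:**
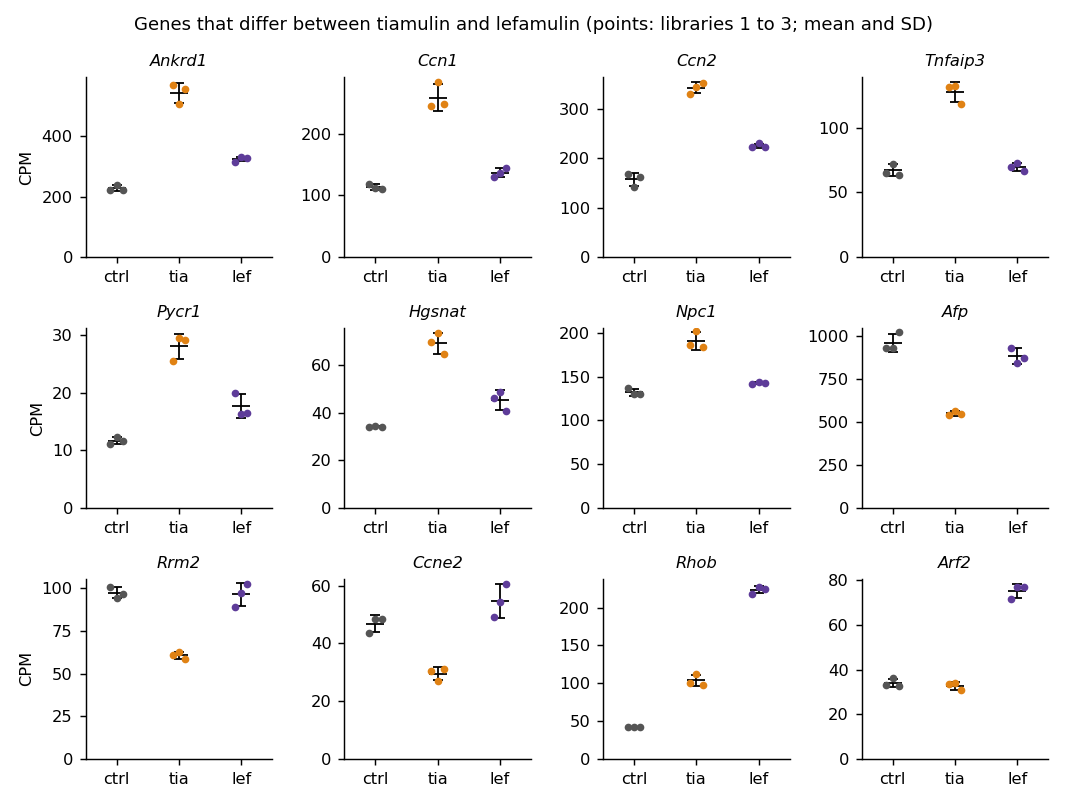
Level in CPM of 12 genes in the control, tiamulin and lefamulin libraries, with a point per library and the mean and SD of each group of 3. Ankrd1, Ccn1 and Tnfaip3 are highest with tiamulin, Afp, Rrm2 and Ccne2 lowest with tiamulin, and Rhob and Arf2 highest with lefamulin.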

How the data were processed

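RNA-Seq libraries of 3 control, 3 tiamulin and 3 lefamulin samples were grouped by their labels. The authors deposited whole-number read counts for 56748 genes without normalization, and FPKM values, which here equalled counts over gene length and a library total. The submitters' processing notes name CASAVA 1.8, fastp, HISAT2 2.0.5, featureCounts 1.5.0-p3 and DESeq2 1.20.0, with mm10. Only 2.76% of the deposited nuclear gene positions matched GRCm38, so no gene position of the tables is printed. Promoter windows came from RefSeq.

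For the tests, edgeR 4.0.16 (R 4.3.3) scaled the libraries by TMM, dropped weak genes by filterByExpr and ran its quasi-likelihood test with robust dispersion on the 9 libraries together, with group as the only term and Benjamini-Hochberg adjustment over the 14510 genes tested. The thresholds for a DEG are those of the study. The log2(fold changes) are those of the fit, CPM are on TMM-scaled library sizes, and errors after ± are SE. The fitting code was first tested on simulated counts. Depth was 15568887 to 18008105 counts per library, and counting error adds most to genes of few counts.

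The 56 gene lists, the tests and the members were chosen with earlier results of these data known. Named genes are the 15 largest DEGs each way among protein-coding genes without overlap between groups and at 1 CPM or more, the 10 each way with the largest change in FPKM, up to 4 members of each list with the smallest adjusted p and its regulators, 6 DEGs each way between the drugs, and the 5 most abundant DEGs lost and gained without tiamulin 2. From these a selection is described. Other list members were named after their values were seen, and a few items that the rule covers are not reported here. GC content, from GENCODE M21 transcripts, was known for 14242 (98.2%) of the tested genes.

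Alternatives were DESeq2 size factors, DESeq2 1.42.0, no filter, a minimum of 10 counts in every library, GC offsets per library, the replicate number as a block, the 2 groups alone, glmTreat, limma 3.58.1 on log2 of FPKM plus 1 or 0.1, and each library left out in turn. Offsets for GC together with leaving out tiamulin 2 were added after the data had been seen. The labels do not call libraries with the same number pairs, and they were not taken as pairs. The deviations of same-numbered control and tiamulin libraries had correlations of -0.398, -0.53 and 0.0173. These deviations carry the GC trends of the libraries, so the correlations cannot show whether the numbers were pairs.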

Additional observations from a re-analysis of the deposited data

How the results depend on the processing

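Of the 234 named genes that were called, 20 alternatives kept between 206 and 233 (limma, with the lowest, gave a value for 212), none changed direction, and 231 kept their call without tiamulin 2. The 259 DEGs (153 raised, 106 lowered) became 164 with at least 10 counts in every library (62 lowered), 21 when glmTreat tested against a 2-fold change (14 raised, 7 lowered), 59 with limma on log2(FPKM + 1) (37 raised, 22 lowered) and 153 with limma on log2(FPKM + 0.1) (88 raised, 65 lowered). Leaving out each library in turn gave 206 to 280 DEGs, 125 to 165 raised and 81 to 115 lowered. The 2383 genes with an adjusted p below 0.05 in edgeR became 3620 with GC offsets (1681 lowered) and 3827 with GC offsets and no tiamulin 2 (1917 lowered). They were 1462 to 3433 over the fits that left out a library, 831 to 1748 raised and 631 to 1685 lowered. The lowest came without control 3 and the highest without tiamulin 2, and the cause was not tested. The 33 DEGs between tiamulin and lefamulin became 70 without a filter, 53 with GC offsets, 54 with GC offsets and no tiamulin 2, 1 by glmTreat, 18 with those 2 groups alone, 21 by DESeq2, and 10 and 21 by limma with a pseudocount of 1 and 0.1. Leaving out a library gave 14 to 46, with the lowest without lefamulin 3, and 19 and 16 without lefamulin 1 and 2.

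With the replicate number as a block, 231 genes were DEGs, 1811 had an adjusted p below 0.05 and 18 were DEGs between the drugs. With the block and GC offsets the values were 290, 3270 and 47. Same-numbered control and tiamulin libraries were not taken as pairs, and the correlation was highest between control 1 and tiamulin 2 (0.549). Of 112 counts of raised or lowered list members, 86 stayed within 1.5-fold without tiamulin 2 and between 79 and 112 over all alternatives.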

Other observations

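The counts that follow stand against 9.08% raised and 7.34% lowered of all tested genes, and without tiamulin 2 against 11.7% and 11.3%. Of 12 genes of iron handling 4 were raised, Hmox1, Fth1, Ftl1 and Steap3, and 2 were lowered. Slc40a1, ferroportin, the only known exporter of iron, was at -0.65 (edgeR adjusted p = 3.64e-05), and Tfrc, the transferrin receptor, at -0.26 (edgeR adjusted p = 0.0217). Of 13 targets of TGF-beta and bone morphogenetic proteins 3 were lowered and 1, the corepressor Tgif1, raised, or 4 and 2 without tiamulin 2. The lowered ones, Id1, Id2 and Id3, inhibitors of differentiation, were at -0.28, -0.32 and -0.28, and the call of Id3 ended in 4 of 9 refits with a library removed and that of Id1 in 1. Of 13 cytochrome P450 genes 5 were raised and 1 lowered, with Cyp3a13, a drug-metabolising enzyme, at 0.78 (edgeR adjusted p = 0.000111). Of 19 glutathione transferases 3 were raised and 2 lowered, shares not far from those of all genes, with the microsomal Mgst1 at 0.81.

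Cytosolic ribosomal proteins gave 3 raised of 80 with tiamulin 2, under the 9.08% of all genes, and 19 of 80 without it, above the 11.7% of all genes in that fit. Cytosolic translation factors gave 10 raised and 5 lowered of 56, and 14 and 7 without tiamulin 2, the lowered ones near the shares of all genes. Of 10 replication-dependent histone genes 3 were lowered, or 2 without tiamulin 2. Of the ABC transporters other than Abca1, 5 were raised and 5 lowered of 39, near the 9.08% and 7.34% of all genes, and the raised ones numbered 3 without control 2. Of 26 genes of antigen presentation 6 were raised and 2 lowered (5 and 4 of 27 without tiamulin 2). Of 18 integrins 5 were raised and 1 lowered, and of 14 claudin and tight junction genes 5 and 3. The raised DEG Chchd10, which encodes a protein of the space between the mitochondrial membranes, went from 1.73, 1.28 and 1.12 CPM to 6.27, 3.94 and 5.53 CPM (log2 1.93, edgeR adjusted p = 6.24e-05). Il2rb, a chain of the interleukin-2 receptor that these hepatoma cells carried at 15.1, 14.3 and 14.9 CPM, was at 5.05, 5.06 and 3.83 CPM with tiamulin, a log2(fold change) of -1.67.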
